A study of Homo sapiens with 120 samples.

Results

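The genes examined here encode the enzymes that build cholesterol from acetyl-CoA and the enzymes that make fatty acids, together with regulators and a carrier of the same pathway. The list held 30 genes chosen by name, of which 27 had a probe set that named a single gene, and for each of these the brightest such probe set in the mean over all arrays was used. All 27 passed the filter on dim genes, out of 14017 tested genes and 19775 with such a probe set. For 26 of them the log2 signal was above the limit of 6.19 on all 120 arrays, and for MVD on 119. FDFT1, CYP51A1 and FADS1 were not analysed here, because no probe set named them alone. The mean log2 signals of the 27 genes ran between 7.14 and 11.99.

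The arrays measured total RNA of TK6, a human cell line of B lymphoblasts, so all cultures come from 1 line. Cultures were exposed for 4 h or 24 h to 1 of 5 chemicals. Formaldehyde (FA), a reactive aldehyde that crosslinks DNA and protein, was used at 50, 100 and 200 µM, and the alkylating agents methyl methanesulfonate (MMS) and ethyl methanesulfonate (EMS) at 80, 160 and 320 µM and at 1, 2 and 4 mM. Colcemid (COL) and vincristine (VCR), which bind tubulin and disturb the spindle, are labelled as 1, 2 and 4 µg/ml, but leading zeros in the titles may mean a lost decimal point, so these doses are named lowest, middle and highest here. Untreated cultures were set up separately for every chemical and time, with no solvent named, and there were 40 groups of 3 arrays with experiment numbers 1 to 3. Signals and changes are on the log2 scale per probe set, a change is treated minus untreated unless said otherwise, and a gene is called at a limma adjusted p under 0.05. The error of a change is limma's moderated standard error (SE, n = 3 arrays a group). It rests on the spread pooled over all groups of the fit, not only on the arrays compared. The p-values measure the spread between arrays of a group, which carry different experiment numbers, and the main fit does not pair arrays by experiment. Whether the labelled experiments are separate cultures on separate days is not stated.

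Of 7 B cell markers, 6 had a probe set, and their mean log2 signals lay between 8.68 and 12.3. The T cell marker CD3G, the myeloid markers CD14, LYZ and MPO, the epithelial marker EPCAM and the fibroblast marker COL3A1 never reached the limit, while 8 of the 16 markers of these other cell types were above it in the mean, namely KRT8 (8.54), COL1A1 (8.35), CDH1 (7.62), KRT5 (7.01), CD4 (7.0), CSF1R (6.62), CD3D (6.41) and DCN (6.28). RNA from whole cultures cannot tell fewer cells of a kind apart from less RNA per cell.

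Cholesterol is made from acetyl-CoA by way of mevalonate, farnesyl diphosphate, squalene and lanosterol. When sterols are scarce in the endoplasmic reticulum, the transcription factors SREBP2 (gene SREBF2) and SREBP1 (gene SREBF1) are cut from their membrane anchors and switch on these genes and those of fatty acid synthesis. INSIG1 holds the precursors back when sterols are plentiful, and its own gene is a target of the same factors. Proliferating cells draw on both pathways for new membranes.

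Promoter windows of 250 bases before to 50 bases after the annotated start (RefSeq, GRCh38.p14) were found for 26 of the 30 listed genes. The box CCAAT, which binds the SREBP partner NF-Y, occurred on either strand in 80.8% of these 26 genes, against 39.7% of all 27305 genes with a window. The GC box GGGCGG occurred in 96.2%, against 48.3%. The genes with a window include many that were not tested here, and no share among the tested genes was computed. The sterol response element TCACNCCAC occurred in 1 of the 26, SREBF2, against 1.39% of all genes, and its shorter core CACNCCAC, searched after the data were seen and contained in the longer motif, in 6 of the 26 (23.1%), against 7.05%. A match describes letters in the window, not a bound site. Windows are shown for SREBF2, which holds the full element, for HMGCS1 and DHCR7, which are among the genes with the deepest falls, and for HSD17B7, which went the other way. The build is GRCh38.p14, the sequences read 5′ to 3′ on the gene's strand, and capitals mark CCAAT, which is read as ATTGG from the other strand, and the sterol element. The windows are chr22:41832855-41833154 (plus strand) for SREBF2, chr5:43313363-43313662 (minus strand) for HMGCS1, chr11:71448344-71448643 (minus strand) for DHCR7 and chr1:162790452-162790751 (plus strand) for HSD17B7.
SREBF2: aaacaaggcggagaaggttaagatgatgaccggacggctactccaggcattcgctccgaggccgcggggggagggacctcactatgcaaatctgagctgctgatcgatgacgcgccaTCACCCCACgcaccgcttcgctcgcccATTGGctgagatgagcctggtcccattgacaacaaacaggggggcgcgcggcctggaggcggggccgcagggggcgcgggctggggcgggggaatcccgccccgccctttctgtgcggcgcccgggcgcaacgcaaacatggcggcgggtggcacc
HMGCS1: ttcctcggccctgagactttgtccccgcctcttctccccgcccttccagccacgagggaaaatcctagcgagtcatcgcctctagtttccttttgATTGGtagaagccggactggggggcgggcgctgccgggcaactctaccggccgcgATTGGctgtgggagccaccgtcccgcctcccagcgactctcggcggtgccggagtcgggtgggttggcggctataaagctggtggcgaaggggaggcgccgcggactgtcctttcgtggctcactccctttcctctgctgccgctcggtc
DHCR7: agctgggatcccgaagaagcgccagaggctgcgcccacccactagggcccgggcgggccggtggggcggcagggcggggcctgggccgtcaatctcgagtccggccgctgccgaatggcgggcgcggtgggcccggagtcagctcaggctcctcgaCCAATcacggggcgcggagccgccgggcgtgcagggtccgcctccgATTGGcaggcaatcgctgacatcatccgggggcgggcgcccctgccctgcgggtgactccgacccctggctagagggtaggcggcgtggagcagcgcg
HSD17B7: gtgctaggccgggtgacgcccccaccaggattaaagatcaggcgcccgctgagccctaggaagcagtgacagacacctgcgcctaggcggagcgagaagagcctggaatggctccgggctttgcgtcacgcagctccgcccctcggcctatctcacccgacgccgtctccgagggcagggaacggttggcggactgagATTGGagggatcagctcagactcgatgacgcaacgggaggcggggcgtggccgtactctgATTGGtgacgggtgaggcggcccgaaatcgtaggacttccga
The HMGCS1 and DHCR7 windows each hold 2 CCAAT boxes, and so does the window of HSD17B7. A second annotated start of HMGCS1 and of DHCR7, not shown, has none in its window.

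In untreated cultures most of the pathway was higher at 24 h than at 4 h in all 5 sets. Of the 27 genes, 25 rose and 0 fell in the FA set, where 29.5% of all tested genes were called, 14.6% higher and 14.9% lower. In the MMS set 20 rose and 1 fell (32.2% of all genes called, 11.6% higher and 20.6% lower), and in the EMS set 21 and 2 (29.9%, 14.1% higher and 15.8% lower). In the COL set they were 24 and 1 (35%, 16.4% higher and 18.5% lower) and in the VCR set 25 and 1 (32.9%, 16.9% higher and 16% lower). The median change of the 27 genes was 0.54, 0.30, 0.34, 0.44 and 0.54 in the FA, MMS, EMS, COL and VCR sets. HMGCS1, which makes hydroxymethylglutaryl-CoA, the precursor of mevalonate, had 10.89, 11.16 and 10.79 at 24 h, against 8.61, 8.91 and 9.09 at 4 h, in the untreated FA arrays. Its change over time was 2.08 (SE 0.099, limma adjusted p = 3.32e-12) there, and 0.77, 1.03, 1.83 and 2.06 in the MMS, EMS, COL and VCR sets. MSMO1, the C4 methylsterol oxidase, changed by 1.54, 0.71, 0.70, 1.39 and 1.60 in the same order of sets. The isomerase gene IDI1 changed by 1.07, 0.55, 0.44, 0.90 and 1.00. PMVK, the phosphomevalonate kinase, went against the rest: it fell in 4 sets, by 0.20, 0.19, 0.22 and 0.25 in the MMS, EMS, COL and VCR sets, and was not called in the FA set (-0.16, limma adjusted p = 0.16). There it had 10.43, 10.58 and 10.41 at 24 h, against 10.80, 10.77 and 10.33 at 4 h. The low array at 4 h was that of experiment 3, whose 3′ probe set of ACTB exceeded its 5′ probe set by 0.680 in log2 signal, against 0.350 and 0.299 on the other arrays of that group. Without that array, a fit added after the data were seen, PMVK fell by 0.31 (SE 0.0539, limma adjusted p = 0.000203), and 25 of the 27 genes rose and 1 fell. STARD4, a cytosolic sterol carrier, fell by 0.16 in the EMS set. ACSS2, which makes acetyl-CoA from acetate, was not called in any set. The ACTB 3′ minus 5′ difference, a gauge of RNA quality, was also higher in the mean at 24 h in all 5 sets. It was 0.481 ± 0.0239 at 24 h and 0.443 ± 0.207 at 4 h in the FA set, 0.941 ± 0.0792 and 0.837 ± 0.0725 in the MMS set, and 0.521 ± 0.0715 and 0.373 ± 0.0679 in the EMS set (SD, n = 3 each). In the COL set it was 0.54 ± 0.0346 at 24 h and 0.329 ± 0.0284 at 4 h, and in the VCR set 0.463 ± 0.0327 and 0.287 ± 0.0524. Its part in this rise was not tested.

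The early response to FA depended on the dose and split the pathway. At 4 h of 200 µM, 15 of the 27 genes rose and 4 fell, where 53.8% of all tested genes were called, 29.6% higher and 24.2% lower. The sterol enzymes rose: 5 of the 7 genes from acetyl-CoA to farnesyl diphosphate and 7 of the 9 genes from squalene to cholesterol were higher and none was lower. Of the 7 fatty acid genes 1 rose and 2 fell. IDI1, which isomerizes isopentenyl diphosphate, had 11.67, 11.83 and 11.81 in treated cultures, against 11.22, 11.27 and 11.04 in untreated ones. Its groups did not overlap, and the change was 0.59 (SE 0.0686, limma adjusted p = 2.9e-07). FDPS, the farnesyl diphosphate synthase (0.43), MVD, the mevalonate diphosphate decarboxylase (0.41), and TM7SF2, a sterol C14 reductase (0.40), followed. In the untreated group these genes and IDI1 were lowest, and HMGCS1 highest, on the array of experiment 3, whose ACTB difference was 0.680. Without that array 18 of the 19 calls at 200 µM were the same, 1 was weaker and 0 reversed.

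The falls at 4 h of 200 µM FA were in ELOVL6, INSIG1, ACLY and SREBF1. ELOVL6, an elongase of saturated fatty acids, had 8.20, 8.36 and 8.16 in treated cultures, against 8.93, 9.09 and 9.06 in untreated ones (-0.79, SE 0.0888, adjusted p = 1.87e-07). INSIG1 had 10.23, 10.35 and 10.20 with FA, against 10.82, 10.94 and 11.01 without it (-0.66, SE 0.0632, adjusted p = 1.58e-08). Every treated array of both genes lay below every untreated one. Of the other INSIG1 probe sets, 1 changed by -0.61 and 1 by 0.04. SREBF1 had 7.64, 7.55 and 7.49 with FA, against 7.77, 7.80 and 7.75 without it, and fell by 0.21 (SE 0.0762, adjusted p = 0.0239); its other probe set changed by 0.18, the opposite way. ACLY, which makes cytosolic acetyl-CoA from citrate, changed by -0.29.

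Not all sterol genes followed the rise. HMGCS1 had 8.77, 8.96 and 8.73 with 200 µM FA at 4 h, against 8.61, 8.91 and 9.09 untreated, and was not called (-0.05, SE 0.099, limma adjusted p = 0.681). SQLE, the squalene epoxidase, had 9.85, 10.13 and 9.96, against 10.12, 10.17 and 10.13 (-0.16, SE 0.0775, adjusted p = 0.0858). The fatty acid synthase FASN had 8.99, 9.05 and 8.95, against 8.89, 8.94 and 8.91 (0.08, SE 0.0738, adjusted p = 0.358). For SCD, the stearoyl-CoA desaturase, the values were 12.04, 12.07 and 11.94 with FA and 11.91, 11.90 and 11.92 untreated (0.11, SE 0.0495, adjusted p = 0.0754). The groups of SCD and FASN did not overlap, those of HMGCS1 and SQLE did, and none of the 4 was called.

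At 100 µM FA and 4 h the picture was different: 7 genes rose and 8 fell, 55.6% of the 27, where 40.7% of all genes were called. Without experiment 3 the count of 15 became 9, with 3 higher and 6 lower, where 29.5% of all genes were called. ELOVL6 changed by -1.32, ACACA, the acetyl-CoA carboxylase, by -0.71, HMGCS1 by -0.58, and MSMO1 and SQLE by -0.35 each, while TM7SF2 (0.38) and FDPS (0.32) rose. Set directly against each other at 4 h, 13 genes were higher and 1 lower at 200 than at 100 µM, where 34.9% of all genes were called. Without experiment 2 these were 8 and 1, where 26.1% of all genes were called. ACACA differed by 0.60 (SE 0.074, limma adjusted p = 9.34e-07), ELOVL6 by 0.54 (SE 0.0888), HMGCS1 by 0.53 (SE 0.099) and MSMO1 by 0.52 (SE 0.0561). INSIG1 was the gene that was lower at the higher dose (-0.22, SE 0.0632, adjusted p = 0.00996). At 50 µM MSMO1 alone was called, lower (-0.33), where 0.82% of all genes were called. With experiment 1, 2 or 3 left out none was, where 0.00713%, 0.0499% and 0.0214% of all genes were called.

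**Figure D1:**
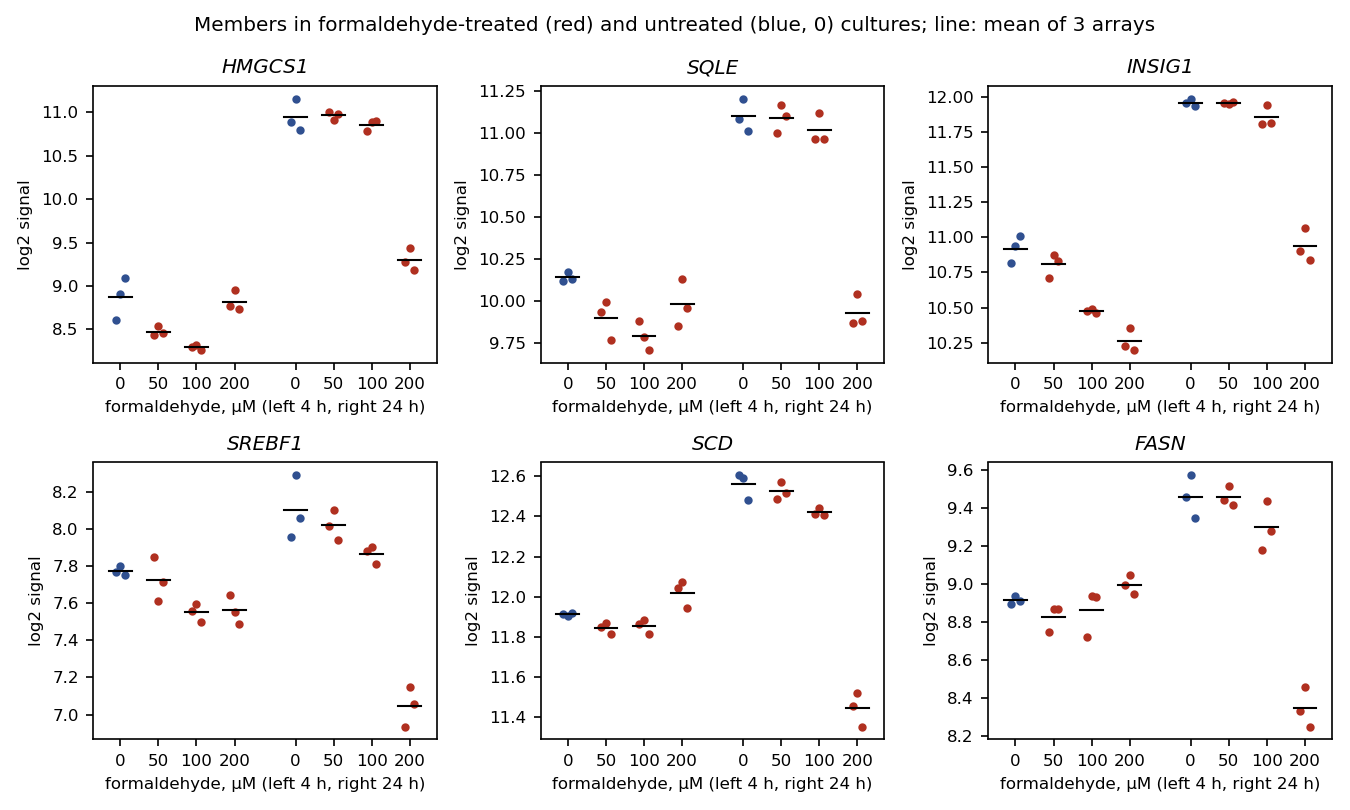
Log2 signal of HMGCS1, SQLE, INSIG1, SREBF1, SCD and FASN on each array of the formaldehyde set (red treated, blue untreated), by dose in µM at 4 h (left of each panel) and 24 h (right), with lines at the mean of 3 arrays. At 24 h the arrays at 200 µM lie below all others in every panel, while at 4 h HMGCS1 is lowest at 100 µM and INSIG1 at 200 µM.

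At 24 h of 200 µM FA the pathway fell almost as a whole. Of the 27 genes 22 fell and 1 rose, with a median change of -0.85, where 47.7% of all genes were called, 23.8% higher and 23.9% lower. The falls covered 6 of the 7 genes from acetyl-CoA to farnesyl diphosphate, 6 of the 9 from squalene to cholesterol, all 4 genes of control and transport and 6 of the 7 fatty acid genes. HMGCS1 had 9.28, 9.43 and 9.19 in treated cultures, against 10.89, 11.16 and 10.79 in untreated ones, a 3.13-fold fall (-1.65, SE 0.099, limma adjusted p = 1.19e-11). ACACA, which commits acetyl-CoA to fatty acid synthesis, had 8.35, 8.63 and 8.47, against 9.69, 9.84 and 9.76 (-1.29, SE 0.074, adjusted p = 5.76e-12). DHCR7, the reductase of the last step to cholesterol, had 8.94, 9.24 and 8.98, against 10.20, 10.41 and 10.10 (-1.18, SE 0.103, adjusted p = 3.91e-09). In all 3 genes every treated array was below every untreated array.

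The regulators fell with the enzymes at 24 h of 200 µM FA. SREBF1 had 6.94, 7.15 and 7.06 with FA, against 7.96, 8.29 and 8.06 untreated (-1.05, SE 0.0762, limma adjusted p = 2.23e-10). INSIG1 had 10.90, 11.07 and 10.84, against 11.96, 11.99 and 11.93 (-1.02, SE 0.0632, adjusted p = 1.92e-11). SREBF2 (-0.39) and STARD4 (-0.33) fell less. Of the 3 SREBF2 probe sets, 1 dimmer one changed by 0.04, and the remaining one had the sign of the fall. SQLE had 9.87, 10.04 and 9.88, against 11.08, 11.20 and 11.01 (-1.17, SE 0.0775, adjusted p = 5.81e-11). SCD had 11.46, 11.52 and 11.35, against 12.61, 12.59 and 12.48 (-1.12, SE 0.0495, adjusted p = 9.07e-14), and FASN had 8.33, 8.46 and 8.25, against 9.45, 9.57 and 9.34 (-1.11, SE 0.0738, adjusted p = 6.05e-11). None of these 5 groups overlapped.

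The exceptions were 5 genes. HSD17B7, a sterol ketoreductase, rose by 0.30 (SE 0.074, adjusted p = 0.00167). PMVK (0.12), TM7SF2 (0.05), the sterol desaturase SC5D (-0.09) and ACSS2 (-0.12) were not called. The HSD17B7 and IDI1 probe sets are of a type (x_at) that can also bind related transcripts. Of the 4 IDI1 probe sets, 2 dimmer ones changed by 0.19 and 0.14, opposite to the fall of 0.84 of the brightest. The remaining IDI1 probe set had the sign of the fall.

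The step between 100 and 200 µM was large at 24 h. At 100 µM 1 gene, TM7SF2, was called (0.21, SE 0.0561, limma adjusted p = 0.0367), where 3.81% of all genes were called. With experiment 1, 2 or 3 left out none was, where 1.12%, 1.43% and 1.33% of all genes were called. At 50 µM limma called 0 of the 27 genes and 0% of all genes, and 0 of the 27 had an unadjusted p under 0.05. Between 200 and 100 µM, 24 of the 27 genes were lower and HSD17B7 was higher (0.25) at 200 µM, where 42.8% of all genes were called. The falls were led by HMGCS1 (-1.56, SE 0.099) and ACACA (-1.13, SE 0.074). Between 24 h and 4 h of 200 µM the change differed for 23 genes, all lower at 24 h, where 53.3% of all genes were called. The largest such differences were those of HMGCS1 (-1.60, SE 0.14), DHCR7 (-1.50, SE 0.145) and IDI1 (-1.43, SE 0.097). RNA quality was gauged by how far the 3′ probe set of ACTB exceeded its 5′ probe set in log2 signal, which was 0.768 ± 0.0697 in the 200 µM cultures at 24 h and 0.481 ± 0.0239 in untreated ones (SD, n = 3 each). Its part in the falls was not tested.

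**Figure D2:**
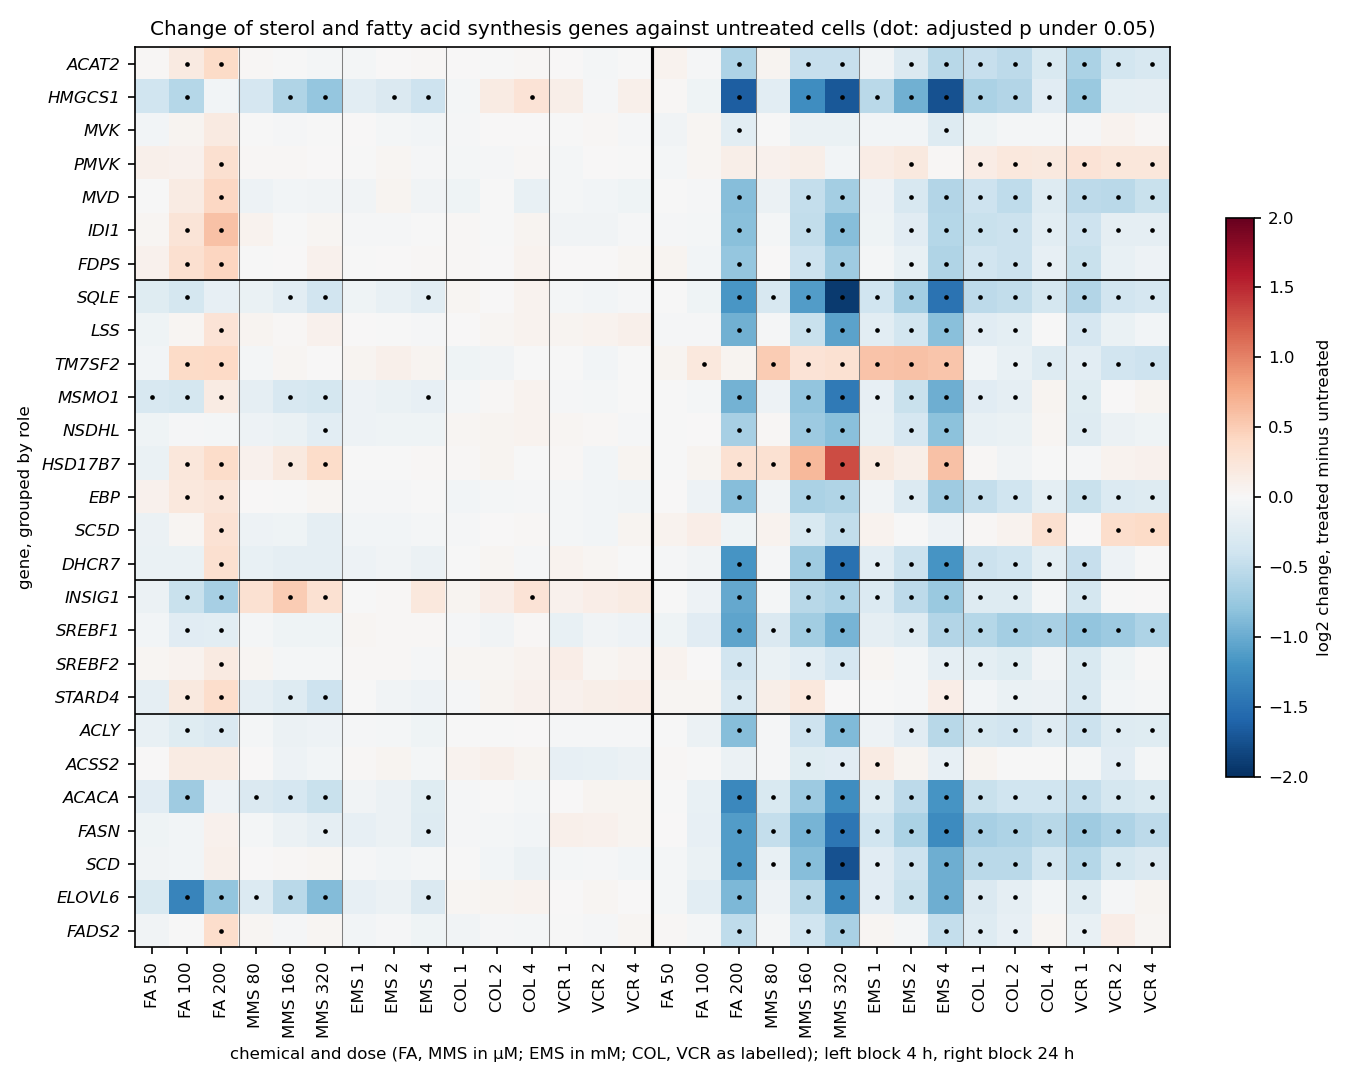
Log2 change against untreated cells (colour, red higher, blue lower, range -2 to 2) of the 27 tested genes, grouped by role, for each chemical and dose at 4 h (left block) and 24 h (right block); dots mark adjusted p under 0.05. The 24 h block is mostly blue at 200 µM FA, 320 µM MMS and 4 mM EMS, with HSD17B7 red.

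MMS lowered some of the genes at 4 h. At 320 µM 8 genes fell and 2 rose, 37% of the 27. Of all 14017 tested genes 28.6% were called, 2141 higher and 1873 lower. ELOVL6 had 8.47, 8.61 and 8.63 with MMS, against 9.44, 9.45 and 9.43 untreated (-0.87, SE 0.0647, limma adjusted p = 2.02e-09). HMGCS1 had 8.89, 8.98 and 9.03, against 9.69, 9.70 and 9.83 (-0.77, SE 0.107, adjusted p = 8.98e-06), and ACACA had 8.77, 8.85 and 8.84, against 9.29, 9.29 and 9.23 (-0.45, SE 0.063, adjusted p = 1.08e-05). These groups did not overlap. Of the 3 ELOVL6 probe sets, 1 dim one changed by 0.12, and the remaining one had the sign of the fall. SQLE had 10.19, 10.23 and 10.12, against 10.63, 10.63 and 10.45 (-0.39, SE 0.0655, adjusted p = 8.55e-05). FASN had 8.33, 8.39 and 8.29, against 8.54, 8.54 and 8.46 (-0.17, SE 0.065, adjusted p = 0.0496), close to the threshold, and a dimmer FASN probe set changed by 0.03.

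INSIG1 went up with MMS at 4 h, opposite to its fall with FA. It had 11.82, 11.80 and 11.90 at 320 µM, against 11.43, 11.45 and 11.73 in untreated cultures (0.30, SE 0.0946, limma adjusted p = 0.0191). The change differed between FA and MMS by -0.96 (SE 0.115, adjusted p = 8.83e-09) and between FA and EMS by -0.87 (SE 0.1, adjusted p = 4.09e-09), at the highest doses. HSD17B7 also rose with 320 µM MMS (0.36, SE 0.064). SREBF1 had 7.52, 7.64 and 7.56, against 7.71, 7.62 and 7.64 (-0.08, SE 0.0607, adjusted p = 0.401), and SCD had 12.12, 12.11 and 12.21, against 12.08, 12.13 and 12.10 (0.04, SE 0.0487, adjusted p = 0.604). Both groups overlapped and neither gene was called. At 160 µM 6 genes fell and 2 rose (13.6% of all genes called), the risers being INSIG1 (0.50) and HSD17B7 (0.20). Without experiment 1, 4 fell and 0 rose (3.97% of all genes called), and without experiment 2, 4 fell and 1 rose (8.09%). At 80 µM ACACA (-0.28) and ELOVL6 (-0.27) fell (1.61%). With experiment 1, 2 or 3 left out none was called, where 0.15%, 0.3% and 0.364% of all genes were.

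At 24 h MMS lowered the pathway by dose. At 80, 160 and 320 µM 5, 22 and 22 of the 27 genes fell and 2, 3 and 2 rose, where 28.5%, 47.3% and 58.5% of all genes were called. At 320 µM 30.8% of all genes were called higher and 27.7% lower. The 7 genes called at 80 µM are 25.9% of the 27, close to the share of all genes, and those that fell were FASN (-0.47), SQLE (-0.33), ACACA (-0.30), SREBF1 (-0.29) and SCD (-0.15). The median change was -0.48 at 160 µM and -0.71 at 320 µM. SQLE had 9.18, 9.22 and 9.19 at 320 µM, against 11.08, 11.20 and 11.04 untreated, a 3.76-fold fall (-1.91, SE 0.0655, limma adjusted p = 5.76e-16). SCD had 10.87, 10.85 and 10.85, against 12.55, 12.66 and 12.58 (-1.74, SE 0.0487, adjusted p = 2.53e-17). HMGCS1 had 8.84, 8.51 and 9.11, against 10.51, 10.48 and 10.55 (-1.69, SE 0.107, adjusted p = 9.89e-12). The treated and untreated arrays of these 3 genes stood more than a log2 unit apart. All 7 fatty acid genes fell, and FASN had 7.24, 7.48 and 7.30, against 8.74, 8.89 and 8.75 (-1.45, SE 0.065, adjusted p = 4.03e-14).

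SREBF1 had 7.25, 7.17 and 7.13 at 24 h of 320 µM MMS, against 8.0, 8.25 and 8.11 untreated (-0.94, SE 0.0607, limma adjusted p = 1.51e-11). INSIG1 had 11.30, 11.01 and 11.39, against 11.92, 11.91 and 11.71 (-0.62, SE 0.0946, adjusted p = 7.71e-06). Both regulators were lower on every treated than on any untreated array. HSD17B7 had 11.93, 11.77 and 11.82, against 10.48, 10.61 and 10.53, and rose by 1.30 (SE 0.064, adjusted p = 1.75e-13). It rose by 0.31 and 0.65 at 80 and 160 µM, so the rise grew with dose. HSD17B7 has only 1 probe set that names it alone, of the x_at type, so no other could be compared. TM7SF2 rose at all 3 doses, by 0.51, 0.28 and 0.30, and STARD4 rose at 160 µM (0.21). PMVK (-0.05), MVK, the mevalonate kinase (-0.13), and STARD4 (0.01) were not called at 320 µM. The ACTB 3′ minus 5′ difference was 1.06 ± 0.123, 1.28 ± 0.0083 and 1.88 ± 0.26 at 80, 160 and 320 µM at 24 h, against 0.941 ± 0.0792 untreated (SD, n = 3 each). Its part in these changes was not tested.

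EMS changed little at 4 h. At 4 mM 6 genes fell and 0 rose, where 9.6% of all genes were called. Without experiment 1, 2 fell (3.3% of all genes called), and without experiment 2, 2 fell (3.51%). HMGCS1 had 9.08, 9.18 and 9.11, against 9.48, 9.61 and 9.50 (-0.41, SE 0.0599, limma adjusted p = 9.93e-05). ELOVL6 had 9.01, 8.88 and 8.98, against 9.31, 9.27 and 9.16 (-0.29, SE 0.0474, adjusted p = 0.000353), and FASN had 8.76, 8.78 and 8.68, against 9.08, 8.98 and 8.93 (-0.26, SE 0.0642, adjusted p = 0.0132). These 3 groups did not overlap, although 1 dim ELOVL6 probe set changed by 0.00. The remaining ELOVL6 probe set had the sign of the fall. At 2 mM HMGCS1 alone was called (-0.29, 1.06% of all genes called). With experiment 1, 2 or 3 left out it was not, where 0.164%, 0.171% and 0.257% of all genes were called. At 1 mM limma called 0 genes (0.143% of all), with 5 at an unadjusted p under 0.05.

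At 24 h of 1, 2 and 4 mM EMS 10, 18 and 22 genes fell and 3, 2 and 3 rose, where 24.3%, 34.6% and 51.5% of all genes were called. At 4 mM 27.8% of all genes were called higher and 23.6% lower. The median change was -0.10, -0.27 and -0.59. Without experiment 2, 7 fell and 1 rose at 1 mM, where 13.6% of all genes were called. HMGCS1 had 8.73, 8.81 and 8.90 at 4 mM, against 10.52, 10.61 and 10.55 untreated (-1.74, SE 0.0599, limma adjusted p = 1.45e-15). SQLE had 9.43, 9.44 and 9.41, against 10.87, 10.89 and 10.95 (-1.48, SE 0.044, adjusted p = 1.52e-16), and FASN had 7.85, 8.01 and 7.85, against 9.10, 9.30 and 9.09 (-1.26, SE 0.0642, adjusted p = 7.33e-13). In each the treated arrays were all below the untreated ones, while the dimmer FASN probe set changed by 0.08. The genes that rose at 4 mM were HSD17B7 (0.59), TM7SF2 (0.55) and STARD4 (0.14). TM7SF2 was already as high at 1 mM (0.58) and 2 mM (0.59), where the falls were smaller. The others that rose were HSD17B7 (0.20) and ACSS2 (0.17) at 1 mM and PMVK (0.19) at 2 mM. The ACTB difference was 0.664 ± 0.0342 at 4 mM and 0.521 ± 0.0715 untreated (SD, n = 3 each), and its part was not tested.

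**Figure D3:**
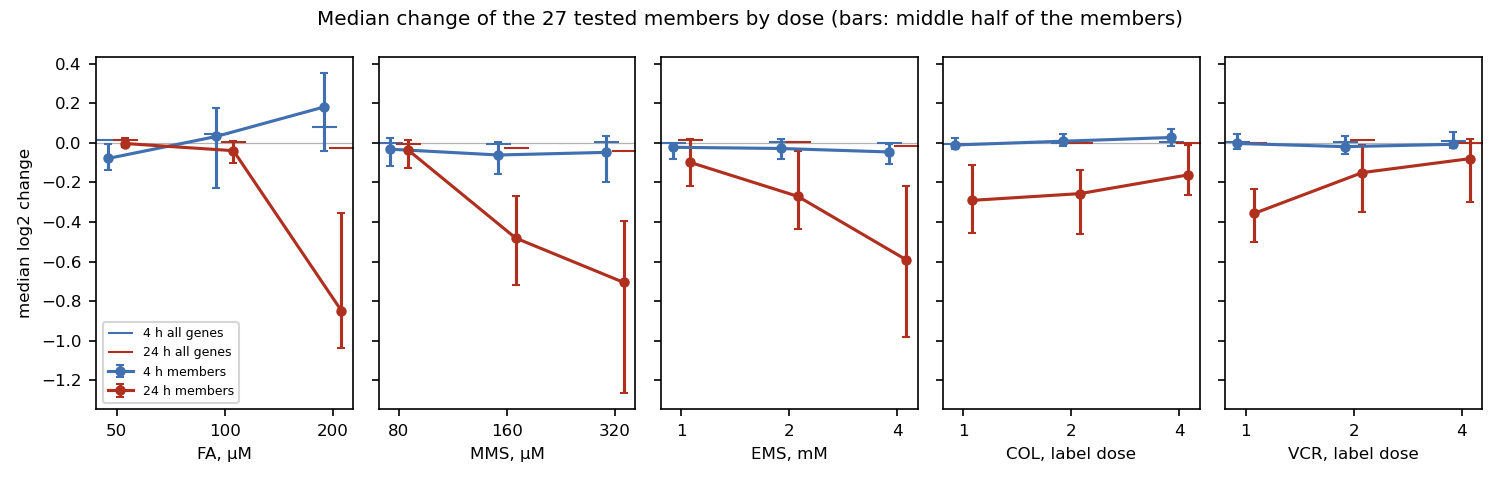
Median log2 change of the 27 tested genes at 4 h (blue) and 24 h (red) against dose for each chemical, with bars over the middle 50% of the genes and dashes at the median of all tested genes. At 24 h the median falls with dose for FA, MMS and EMS and is lowest at the lowest labelled dose for COL and VCR.

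The spindle poisons gave few calls at 4 h. At the highest labelled dose of COL 2 genes rose, where 0.913% of all genes were called. With experiment 1, 2 or 3 left out none was called, where 0.243%, 0.364% and 0.157% of all genes were. HMGCS1 had 8.98, 9.01 and 8.83, against 8.68, 8.69 and 8.62 (0.27, SE 0.0628, limma adjusted p = 0.0388), and INSIG1 had 11.09, 11.08 and 11.16, against 10.80, 10.82 and 10.90 (0.27, SE 0.0517, adjusted p = 0.00857). Neither group overlapped. The lowest and middle doses gave 0 called genes (0% and 0.0642% of all genes), with 0 and 2 at an unadjusted p under 0.05. With VCR limma called 0 of the 27 at all 3 doses (0%, 0.00713% and 0.25% of all genes), with 2 at an unadjusted p under 0.05 at each dose.

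At 24 h both spindle poisons lowered the pathway, and more at the lowest than at the highest labelled dose. With COL 19, 21 and 14 genes fell and 1, 1 and 2 rose, at a median of -0.29, -0.26 and -0.16, in order of dose, where 37.3%, 37.7% and 36.4% of all genes were called. With VCR 22, 12 and 11 fell and 1, 2 and 2 rose, at a median of -0.36, -0.15 and -0.08, where 37.4%, 36.9% and 35.7% were called. At the lowest dose 20.7% of all genes were called lower and 16.6% higher with COL, and 20.8% lower and 16.6% higher with VCR. The share of all genes called was therefore nearly level over the doses while the count among the 27 genes was not. Tested directly, 15 genes were higher and TM7SF2 (-0.21) was lower at the highest than at the lowest COL dose (13.7% of all genes called), and 17 higher and 0 lower for VCR (13.6%). Leaving out experiment 1 made these 2 and 0 for COL and 8 and 0 for VCR, where only 3.89% and 3.57% of all genes were called. Without experiment 3 they were 7 and 0 for COL (5.77% of all genes called), and without experiment 2 they were 11 and 0 for VCR (5.89%). This direct comparison was added after the dose order had been seen.

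HMGCS1 led that difference. With COL at 24 h it had 9.77, 10.01 and 9.83 at the lowest dose, 9.91 ± 0.0824 (SD, n = 3) at the middle dose and 10.26, 10.23 and 10.30 at the highest, and 10.48, 10.53 and 10.48 untreated. With VCR it had 9.89, 9.88 and 9.97, then 10.60, 10.32 and 10.44, then 10.49, 10.52 and 10.40, and 10.48, 10.88 and 10.59 untreated. The lowest dose stood apart below all other groups with VCR, and the lowest and middle doses did with COL. The highest minus lowest difference was 0.39 (SE 0.0628, limma adjusted p = 0.000247) for COL and 0.56 (SE 0.0832, adjusted p = 0.000104) for VCR. For DHCR7 it was 0.23 (SE 0.0603, adjusted p = 0.0153) and 0.45 (SE 0.0566, adjusted p = 1.75e-05). In the same direct comparison of doses, MMS gave 24 genes lower and 1 higher (52.4% of all genes called) and EMS 23 and 1 (43.7%), with HMGCS1 at -1.48 and -1.20. The gene higher was HSD17B7 in both (1.00 and 0.39).

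SREBF1 changed by -0.58, -0.68 and -0.65 with COL and -0.78, -0.72 and -0.61 with VCR at 24 h, in order of dose. It had 7.49, 7.34 and 7.31 at the highest COL dose at 24 h, against 7.94, 8.18 and 7.95 untreated (-0.65, SE 0.0657, limma adjusted p = 1.33e-07). With VCR it had 7.60, 7.56 and 7.44, against 8.16, 8.20 and 8.08 (-0.61, SE 0.0733, adjusted p = 8.85e-07). Its highest minus lowest difference was -0.07 (95% interval -0.21 to 0.07) for COL and 0.17 (0.02 to 0.32, adjusted p = 0.142) for VCR, and neither was called. FASN had 8.72, 8.79 and 8.83 at the highest COL dose, against 9.29, 9.47 and 9.22 (-0.55, SE 0.0635, adjusted p = 7.03e-07), and 9.03, 8.93 and 8.96 with VCR, against 9.37, 9.67 and 9.45 (-0.52, SE 0.0672, adjusted p = 2.24e-06). The dimmer FASN probe set changed by 0.04 with COL. ACACA had 9.26, 9.30 and 9.19 with COL, against 9.61, 9.74 and 9.60 (-0.40, SE 0.0486, adjusted p = 1.3e-06), and MVD had 7.31, 7.33 and 7.17 with VCR, against 7.53, 7.96 and 7.66 (-0.45, SE 0.081, adjusted p = 0.000139). All of these treated arrays lay below their untreated ones.

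SC5D and PMVK rose at the highest doses of both spindle poisons at 24 h. SC5D changed by 0.32 (SE 0.0503) with COL and 0.39 (SE 0.0545) with VCR, and PMVK by 0.19 (SE 0.0517) and 0.23 (SE 0.0569). PMVK also rose at the lowest and middle doses, by 0.16 and 0.21 with COL and 0.28 and 0.23 with VCR, and SC5D at the middle dose of VCR (0.35). TM7SF2, which rose with MMS and EMS, fell with COL (-0.27) and VCR (-0.41). HSD17B7 was not called with either (-0.01 and 0.09). The ACTB difference at the highest dose was 0.512 ± 0.0224 with COL against 0.54 ± 0.0346 untreated, and 0.499 ± 0.0387 with VCR against 0.463 ± 0.0327 untreated (SD, n = 3 each).

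**Figure D4:**
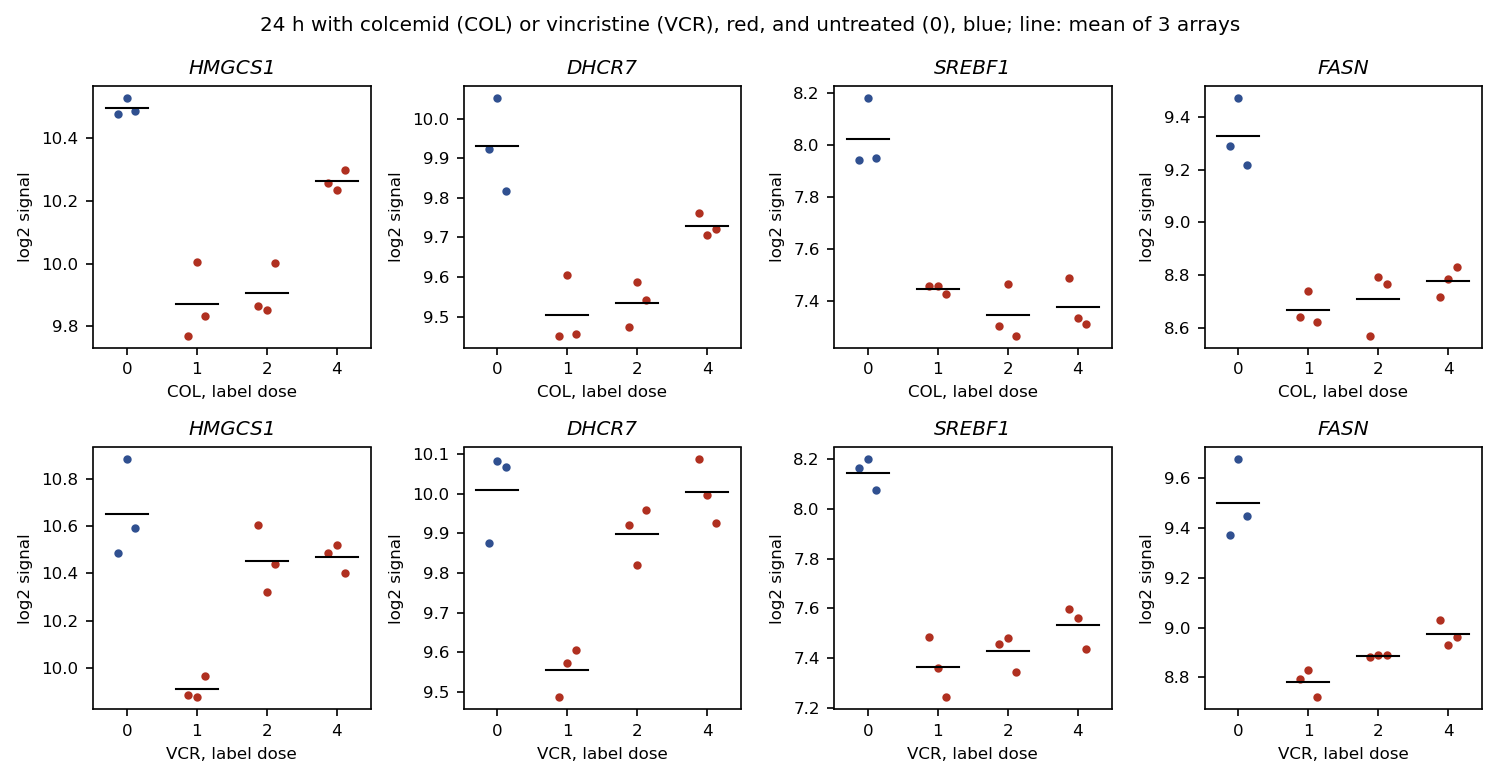
Log2 signal of HMGCS1, DHCR7, SREBF1 and FASN at 24 h on each array (red treated, blue untreated) against the labelled dose of colcemid (top) and vincristine (bottom), with lines at the mean of 3 arrays. HMGCS1 and DHCR7 are lowest at the lowest dose, while SREBF1 and FASN stay below untreated at all 3 doses.

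The paired chemicals differed in detail. COL and VCR, at their highest labelled doses, gave 0 of the 27 genes with a different change at 4 h (0.0571% of all genes called) and 0 at 24 h (2.02%), with 1 at an unadjusted p under 0.05 at each time. At 24 h the 95% intervals of the COL minus VCR differences lay within -0.36 to 0.42 over the 27 genes, and the lack of calls does not show that both act alike. At 24 h MMS minus EMS differed for 11 genes, 1 higher and 10 lower, 40.7% of the 27 against 27% of all genes. SCD (-0.76, SE 0.056, limma adjusted p = 5.65e-13) and SQLE (-0.43, SE 0.0775) fell further with MMS, and HSD17B7 rose further (0.72, SE 0.0915, adjusted p = 1.18e-07). At 4 h 3 genes differed (7.34%), namely ELOVL6 (-0.58), STARD4 (-0.32) and HSD17B7 (0.34). With experiment 1, 2 or 3 left out 1 differed each time (2.44%, 3.15% and 3.64% of all genes called). The doses of these chemicals were not matched in molar terms. At 24 h the ACTB 3′ minus 5′ difference was 1.88 ± 0.26 with 320 µM MMS, against 0.941 ± 0.0792 untreated (SD, n = 3 each). With 4 mM EMS it was 0.664 ± 0.0342, against 0.521 ± 0.0715 untreated. Its part in the differences between MMS and EMS was not tested.

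The 24 h change was also set against the 4 h change at the highest dose of the other chemicals. It was lower for 21 genes and higher for 3 with MMS (45.3% of all genes called), 19 and 3 with EMS (38.3%), 13 and 1 with COL (22.5%) and 9 and 2 with VCR (22.4%). SCD differed by -1.78 with MMS and -0.94 with EMS, and HMGCS1 by -0.92, -1.33 and -0.51 with MMS, EMS and COL. Without experiment 1, 2 or 3 the COL count became 9, 8 or 11, and the VCR count 5 each time. The share of all genes called with COL was 12.3% without experiment 1 and 13.4% without experiment 2. With VCR it was 11.8%, 14% and 16.8% without experiment 1, 2 and 3.

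FA stood apart from both alkylating agents at 4 h. At the highest doses the change was higher with FA than with MMS for 14 genes and lower for 2 (39.8% of all genes called), and than with EMS for 18 and 3 (42.1%). STARD4 differed by 0.78 (SE 0.0948, limma adjusted p = 1.33e-08) from MMS and IDI1 by 0.55 (SE 0.0982, adjusted p = 1.69e-05). The genes lower with FA were INSIG1 and ACLY (-0.19) against MMS, and INSIG1, ELOVL6 (-0.50) and ACLY (-0.20) against EMS. At 24 h 6 were higher and 5 lower with FA than with MMS, 40.7% of the 27 and close to the 36% of all genes. Against EMS SQLE was higher (0.31) and 8 were lower (24.7% of all genes called). When experiment 1 was left out 0 were higher and 4 lower (13.9% of all genes called). SQLE fell less with FA than with MMS (a difference of 0.74, SE 0.102) and HSD17B7 rose less (-1.0, SE 0.098). The ACTB difference at 24 h was 0.768 ± 0.0697 with 200 µM FA, against 0.481 ± 0.0239 untreated (SD, n = 3 each). With 320 µM MMS it was 1.88 ± 0.26, against 0.941 ± 0.0792 untreated. Its part in the differences between FA and MMS was not tested.

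The highest doses at 24 h were also set against untreated cultures at 4 h, a comparison added after the data were seen. With MMS 21 genes were lower and 2 higher (54.7% of all genes called), with EMS 19 and 2 (50.9%) and with FA 12 and 6 (44.9%). FA was split by role. From acetyl-CoA to farnesyl diphosphate 2 were lower and 2 higher, and from squalene to cholesterol 3 and 4. Of the fatty acid genes 5 were lower and 0 higher, and of those of control and transport 2 and 0. Without the untreated 4 h array of experiment 3, PMVK was lower with FA as well (-0.19, SE 0.0539, limma adjusted p = 0.00622). The genes higher with MMS and EMS were HSD17B7 (1.57 and 0.98) and TM7SF2 (0.60 and 0.89). With COL 15 were higher and 1 lower (39%), and with VCR 20 and 1 (35.8%). The mean log2 level of the 27 genes at 24 h was 9.42 ± 0.0179 with 320 µM MMS, against 10.16 ± 0.0516 in untreated cultures at 24 h and 9.84 ± 0.0073 at 4 h (SD, n = 3 each). With FA it was 9.63 ± 0.0607, against 10.34 ± 0.0711 and 9.72 ± 0.0357, and with EMS 9.62 ± 0.009, against 10.22 ± 0.0256 and 9.89 ± 0.0471. With COL it was 10.03 ± 0.0116, against 10.18 ± 0.0632 and 9.68 ± 0.0348, and with VCR 10.14 ± 0.0356, against 10.27 ± 0.0899 and 9.66 ± 0.0544. The treated mean lay below both untreated means with FA, MMS and EMS, and between them with COL and VCR, and the arrays of 200 µM FA overlapped those of the untreated FA cultures at 4 h. HMGCS1 was still 0.43 (SE 0.099) above untreated 4 h cultures with FA, but 0.92 below with MMS (SE 0.107) and 0.72 below with EMS (SE 0.0599). ACACA was below with all 3, at -0.82, -1.03 and -0.89. SREBF1 was the gene lower with COL (-0.36, SE 0.0657) and VCR (-0.24, SE 0.0733). These comparisons and those at 24 h share the treated arrays.

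**Figure D5:**
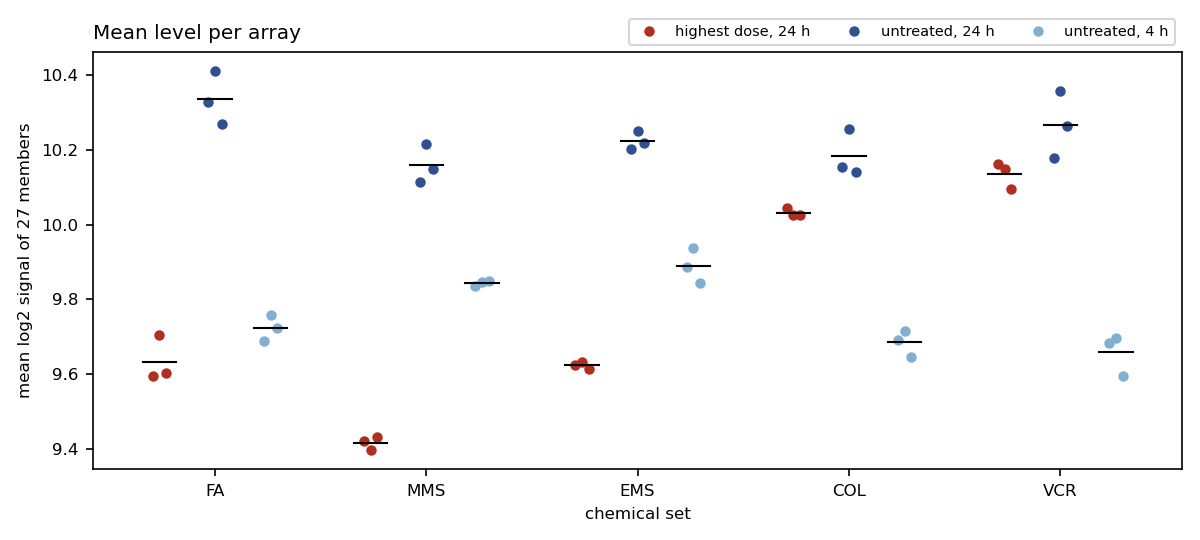
Mean log2 signal of the 27 tested genes on each array for the highest dose at 24 h (red), untreated at 24 h (dark blue) and untreated at 4 h (light blue) of each set, with lines at the mean of 3 arrays. The red points lie below all untreated arrays for MMS and EMS and between both untreated groups for COL and VCR. For FA the red mean is the lowest, but 1 red point (9.70) lies above 1 of the untreated points at 4 h (9.69).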

How the data were processed

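Biotin-labelled targets made from total RNA of TK6 cultures were measured on 120 expression arrays, per the labels' protocols. The deposited values are log2 signals, 1 for each probe set. They were computed by RMA, per the submitters' processing notes, and its software and joint or separate use over arrays are not given in the sources used here. RMA summarises the probes of a probe set after quantile normalization between arrays, so changes are relative to the array as a whole. Array medians lay between 6.13 and 6.24, and no 2 arrays were identical.

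Genes were named from the platform annotation: 41091 probe sets named 1 symbol, 1801 several and 11721 none, of 54675. The brightest single-symbol probe set stood for each gene, and a gene entered the tests when 3 or more arrays were above 6.19, which is the median of the mean signals of all probe sets. Each set's 24 arrays were fitted in limma 3.58.1 (R 4.3.3, with the package data.table at version 1.17.8) with 8 group means and no block; chemicals were compared over 48 arrays. Moderated tests were two-sided, and p-values took the Benjamini-Hochberg adjustment over 14017 genes in each comparison. Figures used python 3.11.15, numpy 2.4.6, pandas 2.3.3 and matplotlib 3.10.9. On simulated data for 24 h of 200 µM FA (14017 genes) 92% of 0.5 and 99% of 1 log2 changes were recovered, with 13 false calls. The simulated noise was normal and independent, with no experiment effect, and only 100 genes were changed at each size. In the real comparison 47.7% of all genes were called, so the simulated rates need not hold there.

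The genes, lists and tests were chosen with earlier results of these data known. Genes given array by array are the 3 called with the largest change at each highest dose and HMGCS1, SQLE, INSIG1, SREBF1, SCD and FASN for 200 µM FA and 320 µM MMS, with HMGCS1 at the other COL and VCR doses and HSD17B7 at 320 µM MMS added after their values were seen, as were the single changes given for other genes. The labels' experiment numbers 1 to 3 are shared by treated and untreated arrays. Deviations from group means of same-numbered arrays correlated above 0.1 in every pair in 19 of 30 comparisons (median 0.286, range -0.132 to 0.509). Alternatives were a block for the experiment, testing dim genes too, averaging a gene's probe sets, repeated quantile normalization, all arrays in 1 fit and leaving out each experiment.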

Additional observations from a re-analysis of the deposited data

Results flagged for a closer look

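The change of a gene between highest dose and untreated differed between 24 h and 4 h, by the limma interaction test, for 23 of the 27 genes with FA (0 higher and 23 lower at 24 h), 24 with MMS (3 and 21), 22 with EMS (3 and 19), 14 with COL (1 and 13) and 11 with VCR (2 and 9). The share of all genes called in these 5 comparisons was 53.3%, 45.3%, 38.3%, 22.5% and 22.4%. The genes higher at 24 h with MMS and EMS were HSD17B7 (0.94 and 0.56), TM7SF2 (0.30 and 0.50) and STARD4 (0.43 and 0.24). Without experiment 1, 2 or 3 the count was 9, 8 and 11 for COL and 5 each for VCR. The share of all genes called fell to 12.3% and 13.4% for COL without experiment 1 and 2. For VCR it fell to 11.8%, 14% and 16.8% without experiment 1, 2 and 3.

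Between chemicals at the highest doses, the change differed at 4 h for 16 genes between FA and MMS, 21 between FA and EMS and 3 between MMS and EMS. The share of all genes called in these 3 comparisons was 39.8%, 42.1% and 7.34%. At 24 h it differed for 11 between FA and MMS, 9 between FA and EMS and 11 between MMS and EMS. These are 40.7%, 33.3% and 40.7% of the 27, against 36%, 24.7% and 27% of all genes, so the first is close to the general share.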

How the results depend on the processing

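Of 59 counts of called genes, 43 stayed within 1.5 times the main count under every alternative, and 16 did not. Percentages in this paragraph are the share of all genes called in the same fit. Under the replicate block, which pairs arrays by experiment, the count became 4 (from 1) for 50 µM FA at 4 h (1.86%). It became 2 (from 1) for 100 µM FA at 24 h (5.99%), and no other count moved by over 1.5 times. Without the filter the count was 0 for 100 µM FA at 24 h (2.05%), 1 for 80 µM MMS at 4 h (0.708%) and 1 for the highest COL dose at 4 h (0.506%). With the mean of probe sets it was 2 for 100 µM FA at 24 h (3.36%) and 0 for 2 mM EMS at 4 h (0.921%). For 80 µM MMS at 4 h it was 1 (1.27%), where the gene called was higher in place of 2 lower. For the highest COL dose at 4 h it was 1 (0.671%), and for FA minus EMS at 24 h 5 (24%). Between highest and lowest dose it was 9 for COL (10.9%) and 11 for VCR (12.4%). With repeated quantile normalization it was 2 for 100 µM FA at 24 h (4.47%), 2 for 2 mM EMS at 4 h (2.29%) and 5 for MMS minus EMS at 4 h (11.4%). With all arrays in 1 fit it was 6 for 50 µM FA (4.58%) and 5 for 80 µM MMS (3.15%) at 4 h. At 4 h it was also 0 for 2 mM EMS (1.16%) and 1 for the highest COL dose (0.927%). For 100 µM FA at 24 h it was 4 (8.15%), with 1 higher and 3 lower. The cause was not tested.

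Leaving out an experiment gave 0 to 0 for 50 µM FA, 80 µM MMS, 2 mM EMS and the highest COL dose at 4 h and for 100 µM FA at 24 h. It gave 9 to 14 for 100 µM FA, 4 to 6 for 160 µM MMS and 2 to 4 for 4 mM EMS at 4 h, and 8 to 11 for 1 mM EMS at 24 h. Between times it gave 8 to 11 for COL and 5 to 5 for VCR, between 200 and 100 µM FA at 4 h 9 to 10, between highest and lowest dose 2 to 12 for COL and 8 to 14 for VCR. Between chemicals it gave 1 to 1 for MMS minus EMS at 4 h and 4 to 6 for FA minus EMS at 24 h. These fits hold 2 arrays a group. Where leaving out an experiment moved a count by over 1.5 times, the share of all genes called was lower as well. Without the untreated FA array of experiment 3 at 4 h, whose ACTB difference was 0.680 against 0.350 and 0.299, the 3 FA counts against untreated at 4 h stayed within 1.5 times, as did 3 other FA counts that use it, run after the data were seen. Of 138 single-gene calls at the highest doses, 105 held under every alternative and 0 reversed. With 3 arrays a group, and with log2 signals that compress changes of dim probe sets, small changes may have been missed. A count of 159 of 170 comparisons of other probe sets of the same genes had the sign of the called change.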

Other observations

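A list of other genes of sterol and fatty acid handling held 30 genes, of which 26 were tested. It was written with earlier results of these data known. At 24 h 3 of the 26 rose and 12 fell with 200 µM FA, 5 and 13 with 320 µM MMS, 4 and 10 with 4 mM EMS, 5 and 5 with the highest dose of COL, and 4 and 5 with that of VCR. Of all genes 23.8% were called higher and 23.9% lower with FA, 30.8% and 27.7% with MMS, and 27.8% and 23.6% with EMS. With these 3 chemicals falls outnumbered rises among the 26, a lean that all genes did not show. Called in either direction with the 5 chemicals, in the order above, were 57.7%, 69.2%, 53.8%, 38.5% and 34.6% of the 26. The shares of all genes were 47.7%, 58.5%, 51.5%, 36.4% and 35.7%. NPC2, a lysosomal cholesterol carrier, rose in all 5, by 0.88 (SE 0.0502), 1.22 (SE 0.0494), 1.26 (SE 0.049), 0.29 (SE 0.0372) and 0.31 (SE 0.0514) in the same order. The fatty acyl-CoA synthetase gene ACSL4 changed by -0.74, -1.47 and -0.87 with FA, MMS and EMS, and ACSL1, another such synthetase, by -1.22 and -0.83 with MMS and EMS. TMEM97, a membrane protein linked to cholesterol traffic, changed by -0.70 with FA, -1.25 with MMS, -0.77 with EMS, -0.40 with COL and -0.29 with VCR. MYLIP, a ubiquitin ligase that limits lipoprotein uptake, rose by 1.17 (SE 0.0696, limma adjusted p = 9.47e-12) with FA, 0.77 with MMS and 0.44 with COL. LBR, a nuclear envelope protein with sterol reductase activity, changed by -0.71 with FA, and NUS1, a subunit of the enzyme that makes dolichol precursors, by -0.85 with EMS. LPIN1, a phosphatidate phosphatase, rose with COL (0.27) and VCR (0.38), and INSIG2, the paralog of INSIG1, changed by -0.70, -0.72, -0.56 and -0.47 with FA, MMS, EMS and VCR.

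At 4 h 5 of the 26 rose and 11 fell with 200 µM FA, where 29.6% of all genes were called higher and 24.2% lower. In either direction these are 61.5% of the 26, against 53.8% of all genes. INSIG2 changed there by -0.64, ACSL1 by -0.63, ACSL4 by -0.53 and NPC2 by 0.59. With 320 µM MMS 8 rose and 5 fell, 50% of the 26 against 28.6% of all genes. ACSL4 changed there by -0.68, MYLIP by -0.56, and LPCAT3, a lysophospholipid acyltransferase, and GGPS1, the geranylgeranyl diphosphate synthase, by 0.40 each. With 4 mM EMS the protease gene MBTPS2, whose product cuts the SREBP precursors, changed by -0.26, LPIN1 by 0.20 and LPCAT3 by 0.18. None of the 26 was called at 4 h with the highest dose of COL or VCR, where 0.913% and 0.25% of all genes were called.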
